A study of Chlorocebus aethiops with 12 samples.

Results

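The transcripts here encode the stress-activated MAP kinases JNK and p38, kinases that switch them on, and the 3 GADD45 proteins that bind upstream kinases. They were found by accession among the probes of a human expression array: 11 accessions for 9 genes were looked up, and 8 accessions, each of a different gene, had a probe. The 8 were MAPK9 (NM_002752), MAPK14 (NM_001315), MAP2K4 (NM_003010), MAP2K7 (NM_145185), MAP3K5 (NM_005923), GADD45A (NM_001924), GADD45B (NM_015675) and GADD45G (NM_006705). Both accessions of MAPK8 and the second accession of MAPK14 had no probe under that name, so MAPK8 was not analysed here. The 8 accessions were covered by 9 of the 41000 probes on the array, since GADD45B had 2 probes. All 9 probes were well above background, by the scanner software's own flag, on each of the 12 arrays. All 8 accessions were among the 23757 of 32379 accessions that passed the filter on dim probes.

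The study asked how MDFIC, a protein that binds the glucocorticoid receptor (GR), alters the genes that GR regulates. COS-1 cells, a transformed kidney line of the African green monkey that makes little GR of its own, received plasmid for GR by itself or for both GR and MDFIC. From 48 h after transfection, each kind of cell received vehicle or the synthetic glucocorticoid dexamethasone (Dex, 100 nM) for 6 h. The 4 groups were GR cells with vehicle, GR cells with Dex, GR+MDFIC cells with vehicle and GR+MDFIC cells with Dex, each with 3 biological replicates and 1 array per replicate. All 4 groups therefore carried transfected GR, and the medium of all 4 had been changed to charcoal-stripped serum the day after transfection. The labels do not give the plasmid's promoter, the share of cells that took it up, or whether replicates were separate transfections, so p-values measure the spread between these samples.

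Each array was scaled to the 75th percentile of its own signals, and levels are given on the log2 scale with that percentile at 0. A difference of 1 is a doubling on this scale, and levels of different probes are not comparable with each other. The arrays lay on 3 slides. Slide 1 held the 3 GR vehicle arrays and GR Dex replicate 1. Slide 2 held GR Dex replicates 2 and 3 with GR+MDFIC vehicle replicates 1 and 2, and slide 3 held GR+MDFIC vehicle replicate 3 with the 3 GR+MDFIC Dex arrays. Per the file headers slide 3 was read on another scanner, with another release of the scanner software, and it was dimmer, with a 75th percentile of 365 to 414 against 758 to 948 on the others. GR+MDFIC vehicle replicate 3 had the lowest correlations with its own group over all accessions (r of 0.98176 and 0.98063, against 0.9915 to 0.99544 between other replicates of a group). One probe of the MDFIC accession NM_199072 read -3.46 to -3.18 in the 6 GR arrays and 4.88 to 5.86 in the 6 GR+MDFIC arrays, as the labels say. The second probe of that accession, A_23_P327022, read -2.48 to -1.80 over the 12 arrays and was no higher in GR+MDFIC cells. By the first probe the MDFIC transcript fell by 0.59 on the log2 scale with Dex in GR+MDFIC cells (SE 0.12, adjusted p = 0.01025 by limma; 0.02755 with slide as a block), and its part in the other results was not tested. Among cell type markers, VIM, FN1 and S100A4 of the fibroblast list, but also 4 of 4 epithelial, 2 of 2 hepatocyte and 1 of 2 leukocyte markers, were well above background on every array, and COL1A2 was so on none. The probes were designed on human sequence, and cross-reaction with monkey RNA was not tested.

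JNK and p38 sit at the end of a relay of kinases. Stress signals activate kinases at the top such as MAP3K5 (ASK1). These phosphorylate the middle kinases, MAP2K4 acting on JNK and p38 and MAP2K7 on JNK, which in turn phosphorylate JNK (MAPK8, MAPK9) and p38 (MAPK14). GADD45 proteins are small stress-induced proteins with no enzyme activity that bind and activate the upstream kinase MAP3K4, and GADD45B also binds MAP2K7. JNK and p38 phosphorylate GR itself, and ligand-bound GR in turn restrains these kinases and the AP-1 factors they activate. The arrays measured RNA, so neither the activity of any kinase nor the phosphorylation of GR was measured.

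Dexamethasone raised 1 of these transcripts strongly in both kinds of cell. GADD45G, a member of the GADD45 family known as a gene induced by cytokines, rose 2.73-fold without MDFIC and 2.94-fold with it. In GR cells with vehicle its level was -2.24, -2.29 and -2.44, and with Dex it was -0.77, -0.90 and -0.95. In GR+MDFIC cells it was -2.29, -2.20 and -2.47 with vehicle and -0.67, -0.78 and -0.84 with Dex. Every Dex array was higher than every vehicle array in both kinds of cell, and the gap between the groups was wider than the range within any of them.

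The log2 difference of GADD45G between Dex and vehicle was 1.45 ± 0.09 (SE, 95% interval 1.25 to 1.65) in GR cells, with 3 arrays in each group. Each SE and interval of a difference comes from the limma fit over all 12 arrays, which pools the spread of the 4 groups. The adjusted p was 1.131e-05 by limma with Benjamini-Hochberg adjustment over all 23757 accessions. With MDFIC the difference was 1.56 ± 0.09 (95% interval 1.36 to 1.75, adjusted p = 5.054e-06 by limma). Of all accessions tested, 0.631% differed by more than GADD45G in GR cells, and 2.29% did in GR+MDFIC cells. The slides gave the same direction: on slide 1 the Dex array was 1.55 above the mean of the vehicle arrays, and on slide 3 the mean of the Dex arrays was 1.71 above the vehicle array. Once slide was included as a block in the fit, the adjusted p from limma was 0.000345 without MDFIC and 0.0001733 with it. In bulk RNA, a higher level in each cell and a larger share of cells that make the transcript cannot be told apart.

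**Figure D1:**
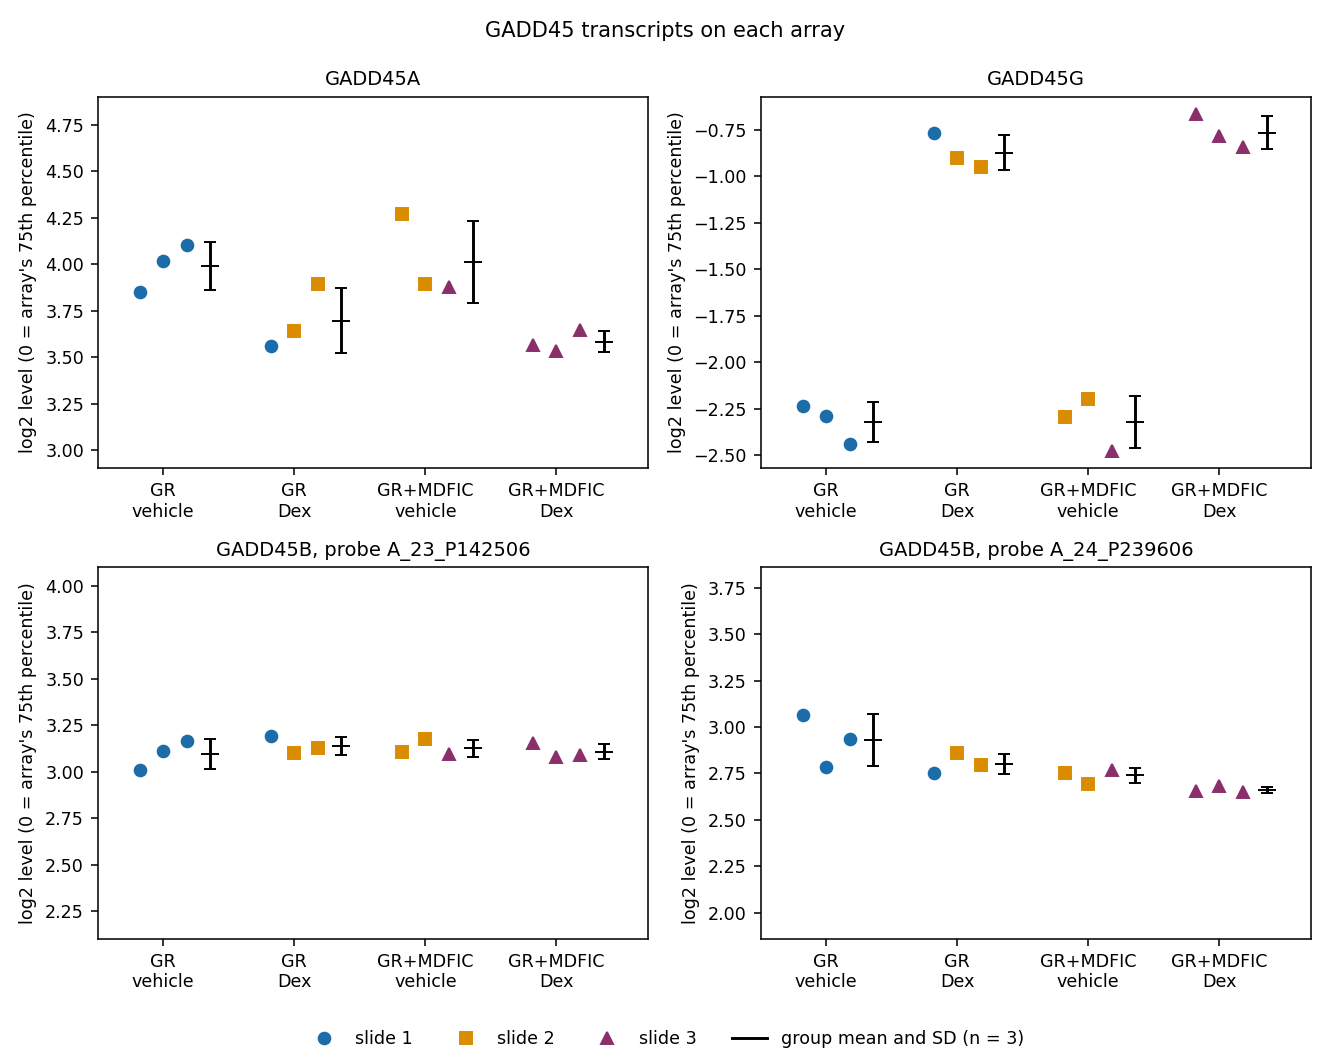
Log2 level of the 3 GADD45 transcripts on each of the 12 arrays, relative to the array's 75th percentile, with symbols for the slide and bars for each group's mean and SD (n = 3). The 6 Dex arrays of GADD45G lie at -0.95 to -0.67, above the 6 vehicle arrays at -2.47 to -2.20, while the 2 probes of GADD45B stay within 3.01 to 3.19 and 2.65 to 3.07.

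GADD45A, a gene induced by DNA damage through p53, lay lower with Dex than with vehicle in both kinds of cell. In the fit to all arrays the fall of GADD45A passed only for GR+MDFIC cells, and that call depended on how the data were handled. In GR+MDFIC cells its level was 4.27, 3.89 and 3.88 with vehicle and 3.57, 3.54 and 3.65 with Dex. The groups did not overlap, and vehicle replicate 1 stood above its own group. GADD45A fell by 0.43 on the log2 scale (SE 0.12, 95% interval -0.70 to -0.15, adjusted p = 0.04686 by limma), which is 1.35-fold lower. In GR cells the level was 3.85, 4.02 and 4.10 with vehicle and 3.56, 3.64 and 3.89 with Dex, so that Dex replicate 3 lay above vehicle replicate 1.

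The difference of GADD45A in GR cells was -0.30 ± 0.12 (SE, 95% interval -0.57 to -0.02, adjusted p = 0.2201 by limma), which did not pass. Within slide 1 it was -0.43, and within slide 3, which held 1 vehicle array of GR+MDFIC cells, the difference in those cells was -0.30. The call in GR+MDFIC cells was lost when slide was a block (adjusted p = 0.486 by limma). It was also lost in 15 of the 24 other alternatives tried, among them the fit without vehicle replicate 1, with a difference of -0.30 and an adjusted p of 0.1389. The difference was below 0 in all 25 alternatives.

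GADD45B is known as a target of TGF-beta and NF-kB signalling. Its probe A_23_P142506, which had the smallest range of the 9 probes over the 12 arrays, averaged 3.10 ± 0.08 (SD, n = 3) in GR cells before and 3.14 ± 0.05 after Dex. The GR+MDFIC averages of that probe were 3.13 ± 0.04 for vehicle and 3.11 ± 0.04 for Dex. The 95% intervals of its Dex effect were -0.07 to 0.16 in GR cells and -0.13 to 0.10 in GR+MDFIC cells. Its second probe, A_24_P239606, read lower with Dex by 0.13 and 0.08, and neither difference passed (adjusted p = 0.3547 and 0.4669 by limma over all probes).

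Of the 5 kinase transcripts, none passed the test for Dex in either kind of cell. In GR cells the upstream kinase MAP3K5 averaged -1.56 ± 0.07 (SD, n = 3) with vehicle against -1.67 ± 0.11 with Dex, and with MDFIC added the averages were -1.69 ± 0.14 and -1.71 ± 0.10. For the JNK kinase MAPK9 the averages were -0.61 ± 0.09 and -0.55 ± 0.07 without MDFIC, and -0.57 ± 0.06 and -0.51 ± 0.07 with it. The vehicle and Dex arrays of both transcripts overlapped in each kind of cell. The 95% intervals of the Dex effect were -0.31 to 0.08 and -0.21 to 0.18 for MAP3K5, and -0.08 to 0.20 in both kinds of cell for MAPK9, so that a doubling or a halving lay outside each of them.

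MAP2K4, the middle kinase that acts on both JNK and p38, read 2.57, 2.32 and 2.39 in GR cells with vehicle and 2.32, 2.25 and 2.28 with Dex. The groups were apart by less than 0.01, and the difference of -0.14 ± 0.07 (SE) did not pass (adjusted p = 0.3218 by limma). With MDFIC its difference was -0.01 (95% interval -0.17 to 0.15). MAPK14, the p38 alpha kinase, differed by -0.03 (95% interval -0.14 to 0.08) in GR cells and by 0.08 (95% interval -0.03 to 0.20) in GR+MDFIC cells.

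MAP2K7, the middle kinase of JNK, had the widest spread among the kinases, through 1 array that stood apart. In GR cells it read -4.17, -4.26 and -4.29 with vehicle and -3.95, -4.37 and -4.39 with Dex, and the single Dex array above the vehicle arrays was replicate 1, on slide 1 with those vehicle arrays. The difference between the 3 Dex and the 3 vehicle arrays was 0.00 (95% interval -0.25 to 0.26), and within slide 1 it was 0.29 (adjusted p = 0.1975 by limma, slide as a block). In GR+MDFIC cells it read -4.49, -4.28 and -4.38 with vehicle and -4.17, -4.11 and -4.27 with Dex. These groups were apart by less than 0.01, with a difference of 0.20 ± 0.11 (SE, adjusted p = 0.2612 by limma). The MAP2K7 probe gave the lowest levels of the probes described here. Over 25 alternatives this difference ran from 0.01 to 0.25, and it was lowest with normexp background correction and quantile scaling.

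**Figure D2:**
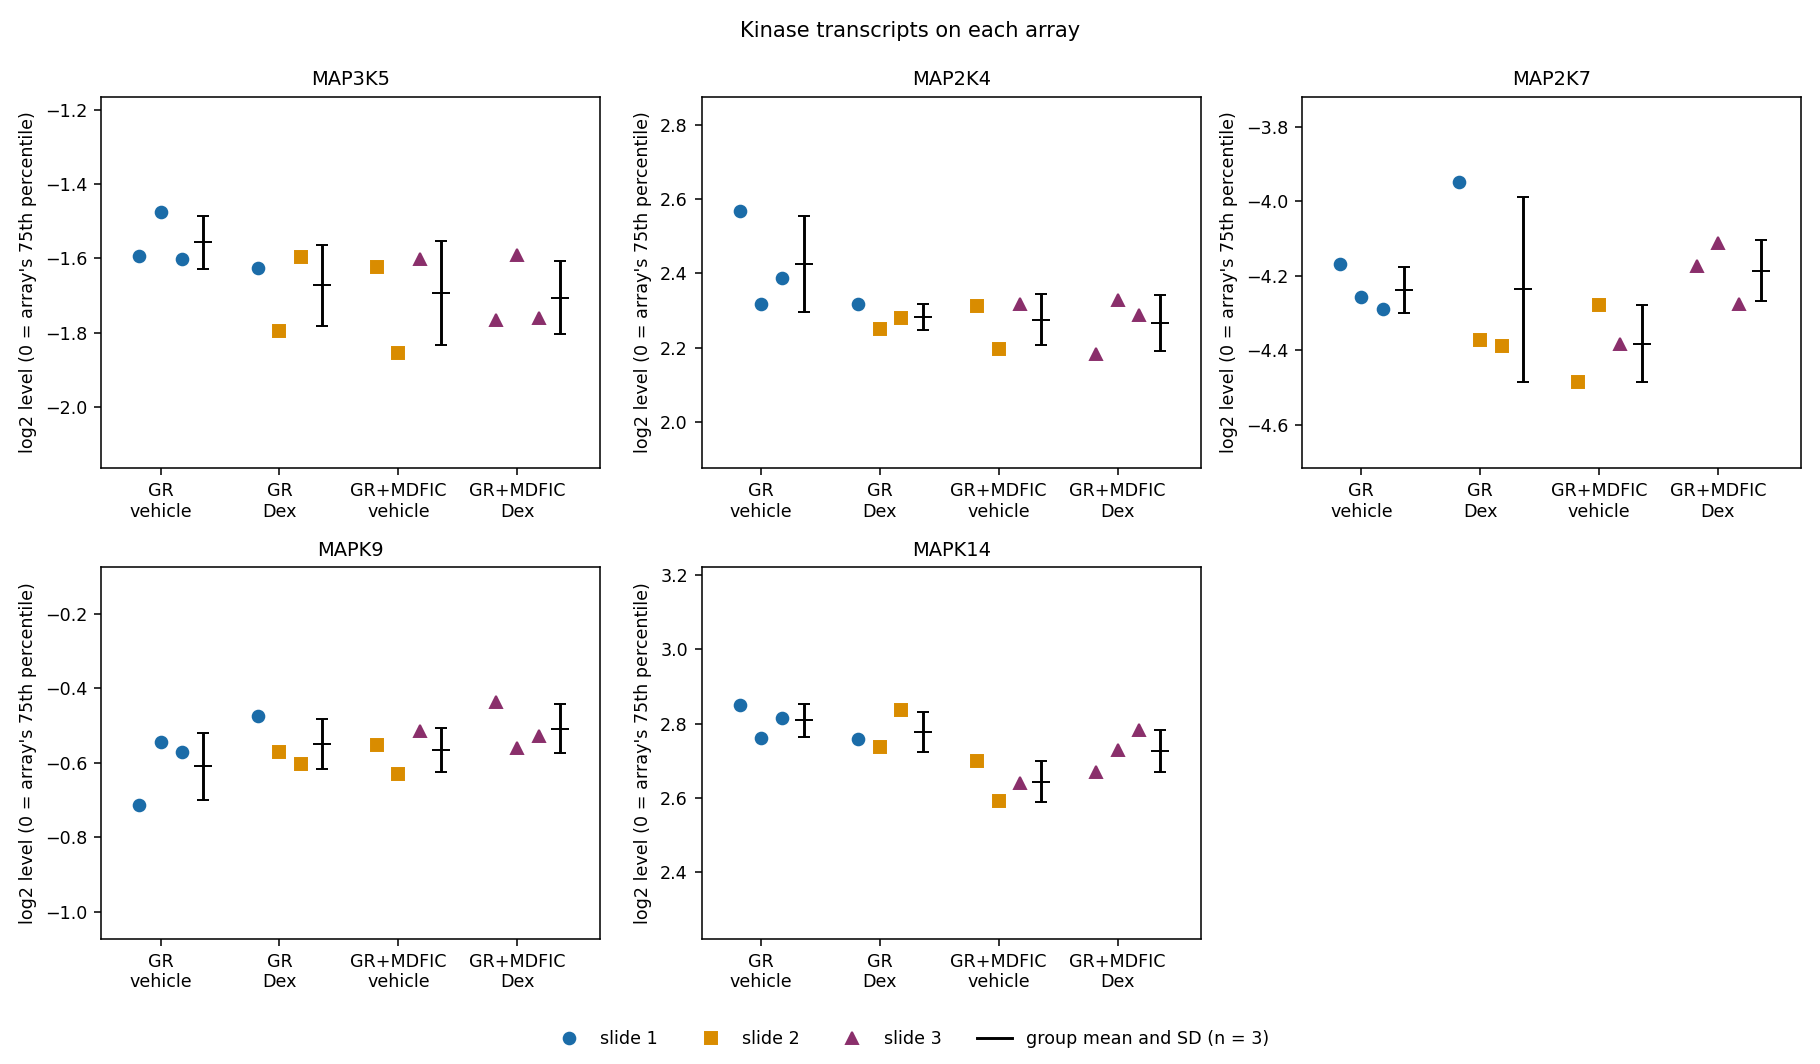
Log2 level of the 5 kinase transcripts on each of the 12 arrays, relative to the array's 75th percentile, with symbols for the slide and bars for each group's mean and SD (n = 3); each panel spans 1 log2 unit. The groups mostly overlap, the MAPK14 arrays of GR+MDFIC cells with vehicle lie at 2.59 to 2.70 against 2.76 to 2.85 in GR cells with vehicle, and the slide 1 array of MAP2K7 in GR cells with Dex stands alone at -3.95.

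Counted together, 1 of the 8 transcripts passed for Dex in GR cells, where 7.17% of all accessions did, and 2 of 8 passed in GR+MDFIC cells, where 13.5% did. In the fit with slide as a block it was 1 of 8 in each, GADD45G both times, against 3.56% and 3.41% of all accessions. The groups did not overlap for 2 of 8 transcripts in GR cells (26.2% of all accessions) and for 3 of 8 in GR+MDFIC cells (32.2%), which is near the background. The median Dex effect over the 8 was -0.01 without MDFIC and 0.02 with it, beside 0.01 and -0.01 over all accessions.

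Adding MDFIC without hormone passed the test for none of the 8 transcripts, where 0.884% of all accessions passed by limma; 1 of the 8 had an unadjusted p under 0.05, as 17.6% of all accessions did. That transcript was MAPK14. Its level was 2.85, 2.76 and 2.81 in GR cells and 2.70, 2.59 and 2.64 in GR+MDFIC cells, so every GR+MDFIC array was lower. The difference was -0.16 ± 0.05 (SE, 95% interval -0.28 to -0.05, adjusted p = 0.1552 by limma), or 1.12-fold. It was negative in all 26 alternatives and passed in none, with adjusted p from 0.09961 to 0.5684.

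The MAPK14 probe is printed in 10 spots on every array, which shows the technical spread behind each value. The SD over the 10 spots was 0.061 to 0.144 on the 12 arrays. In the GR vehicle arrays the spots ranged from 2.63 to 3.10, and in the GR+MDFIC vehicle arrays from 2.48 to 2.85, so single spots overlapped although the array means did not. The spots of an array share its RNA and were averaged to 1 value.

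**Figure D3:**
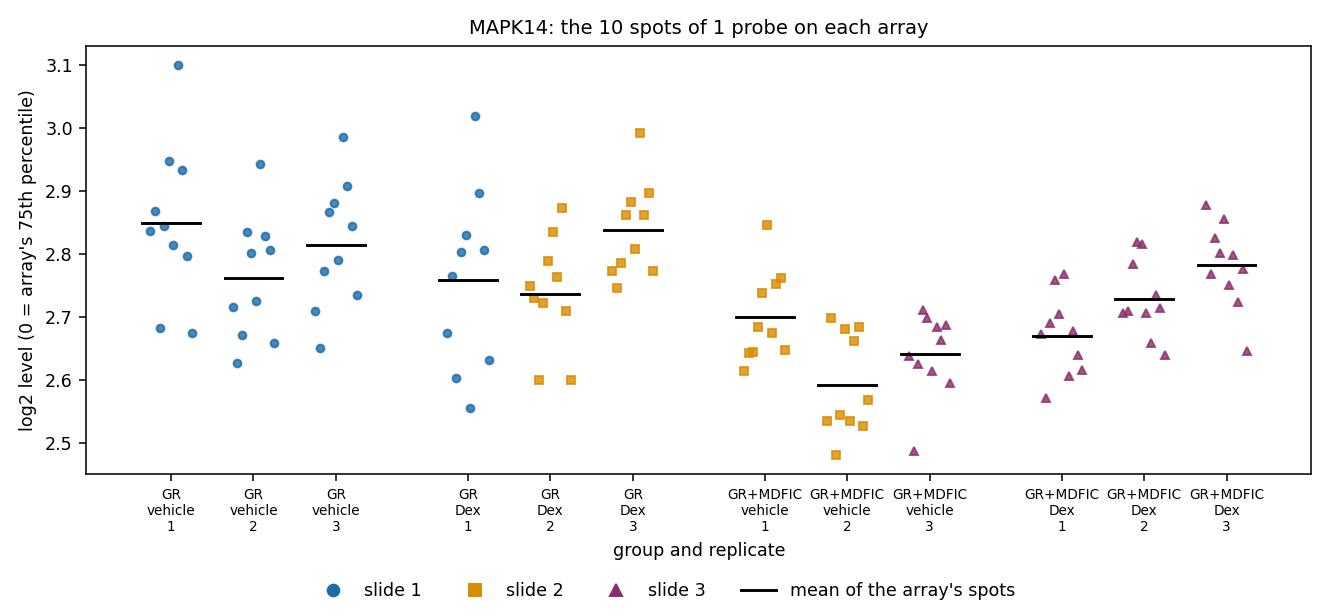
Log2 level of each of the 10 spots of the MAPK14 probe on the 12 arrays, relative to the array's 75th percentile, with a line at the mean of the array's spots and symbols for the slide. The means of the 3 GR+MDFIC vehicle arrays, 2.59 to 2.70, lie below those of the 3 GR vehicle arrays, 2.76 to 2.85, while their single spots overlap.

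MAP2K4 was also lower on every GR+MDFIC vehicle array, at 2.31, 2.20 and 2.32 against 2.32 to 2.57 in GR cells, with a difference of -0.15 ± 0.07 (SE, adjusted p = 0.3076 by limma). MAP3K5 was the third transcript whose groups did not overlap, with a difference of -0.14 ± 0.09 (adjusted p = 0.4443 by limma). For both, the gap between the nearest arrays was under 0.01. Non-overlap in 3 of 8 transcripts stood beside 22.1% of all accessions. The median over the 8 was -0.07, beside -0.00 over all accessions. No slide held both GR and GR+MDFIC cells with vehicle, and slide and MDFIC cannot be told apart here without borrowing from the other groups; with slide as a block the MAPK14 difference was -0.19 with a 95% interval of -0.43 to 0.05.

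GADD45 transcripts showed no difference past the threshold with MDFIC in vehicle. For GADD45G the difference was -0.00 (95% interval -0.20 to 0.20), for GADD45A it was 0.02 (95% interval -0.25 to 0.30), and for GADD45B it was 0.03 (95% interval -0.09 to 0.15). The second GADD45B probe was lower by 0.19 (SE 0.07), and the adjusted p was 0.207 by limma over all probes. Its 3 GR+MDFIC vehicle arrays, at 2.70 to 2.77, lay below the 3 GR vehicle arrays at 2.79 to 3.07, which the first probe did not show.

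Under Dex, MDFIC again passed for none of the 8 transcripts, where 5.54% of all accessions passed by limma. None of the 8 had an unadjusted p under 0.05, against 24.7% of all accessions. By the probe that stood for each accession, the groups overlapped for all 8, and they did not for 32.2% of all accessions. The groups shared no slide, so these shares of all accessions can include slide differences. Far fewer accessions passed with slide as a block, and whether the 8 differ from the rest was not tested. The second GADD45B probe, at 2.65 to 2.68 in GR+MDFIC cells, lay below its GR arrays at 2.75 to 2.86. Its difference was -0.14 (SE 0.07) and did not pass (adjusted p = 0.2455 by limma over all probes). GADD45G read 0.11 higher in GR+MDFIC cells (95% interval -0.09 to 0.30), GADD45A 0.11 lower (95% interval -0.39 to 0.16), and MAPK14 0.05 lower (95% interval -0.16 to 0.06). In the fit that takes slide as a block, which estimates slide differences from the groups that span slides, the GADD45G difference became 0.39 (95% interval 0.08 to 0.70, adjusted p = 0.6585 by limma). Within a slide the GR Dex and GR+MDFIC Dex groups never met.

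The change of the Dex effect by MDFIC was tested as an interaction. It passed for none of the 8, where 0.0589% of all accessions passed by limma. None of the 8 had an unadjusted p under 0.05, against 9.85% of all accessions. For GADD45G the Dex effect was larger in GR+MDFIC cells by 0.11 (95% interval -0.17 to 0.39, adjusted p = 0.773 by limma). For GADD45A the Dex effect was more negative in GR+MDFIC cells by 0.13, with a 95% interval from -0.52 to 0.25 and an adjusted p of 0.8029 by limma. With slide as a block the sign turned, and the GADD45A interaction was 0.14 (95% interval -0.41 to 0.68). That GADD45A passed in one kind of cell and not in the other is therefore not shown to be a difference between them.

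**Figure D4:**
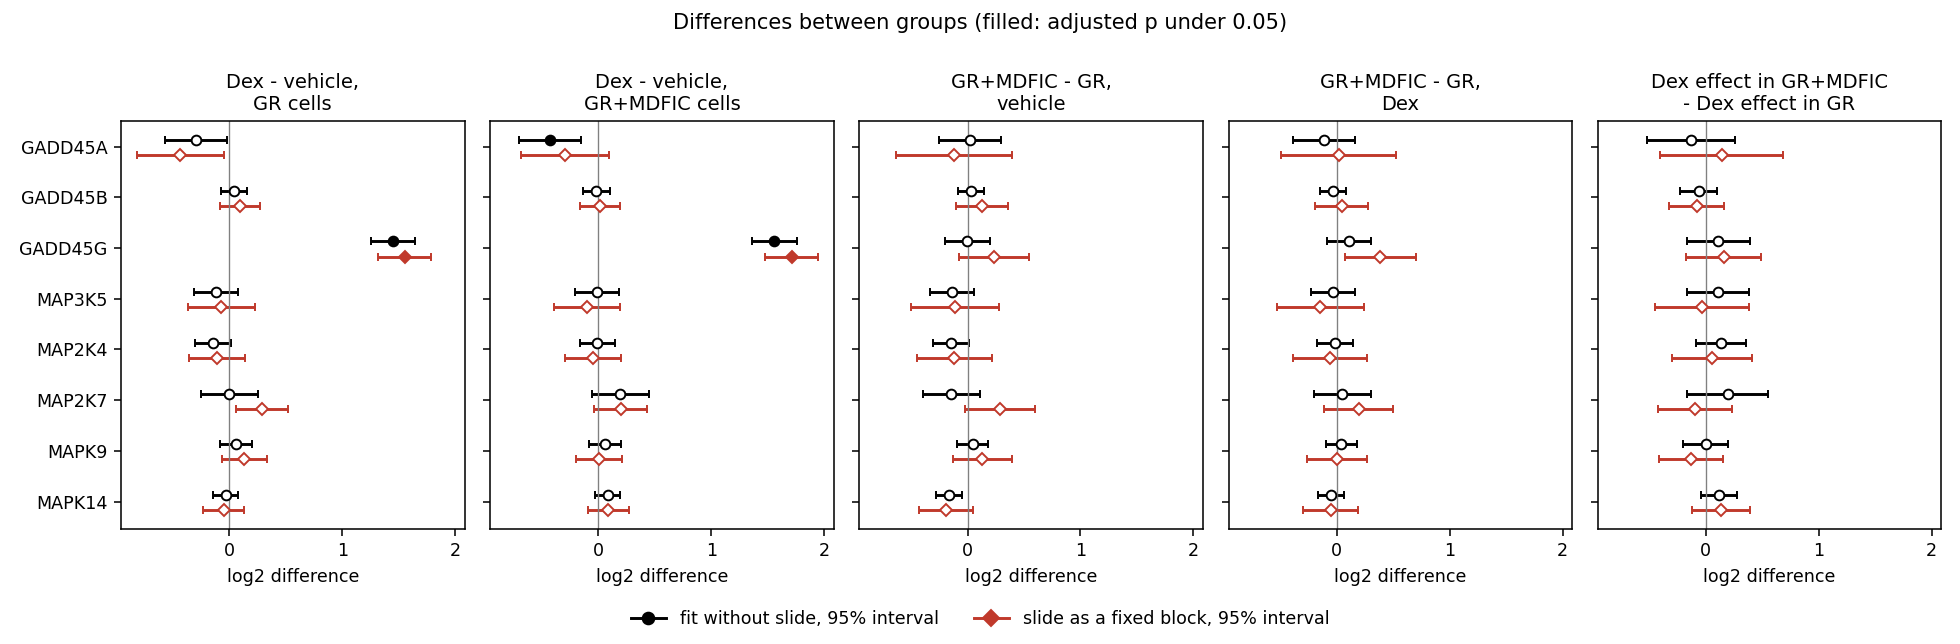
Log2 differences of the 8 transcripts in the 5 comparisons, with 95% intervals, from the fit without slide (black circles) and with slide as a fixed block (red diamonds); filled symbols have an adjusted p under 0.05. GADD45G stands at 1.45 and 1.56 for Dex, with a filled symbol in both fits, and GADD45A at -0.43 in GR+MDFIC cells is filled only without the block.

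Other genes of the same relay were taken from a list of 28 genes: the remaining JNK and p38 genes, upstream kinases, scaffolds, phosphatases, partners of MAP3K5 and substrates. Of these, 26 had a probe and were tested. The array files list accessions without gene names, so these names rest on accessions entered by hand with no table to check them. In GR cells Dex raised 1 of the 26 and lowered 1 (7.69% in all, beside 7.17% of all accessions). With MDFIC present it raised 1 and lowered 2 (11.5%, beside 13.5%). MDFIC passed for 0 of the 26 without hormone (beside 0.884%) and raised 1 with Dex (3.85%, beside 5.54%), and the interaction passed for 0 (beside 0.0589%). When slide was a block, Dex raised 1 and lowered 1 in each kind of cell, and MDFIC passed for 0 with or without Dex.

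JUN (NM_002228), the AP-1 factor that gives JNK its name, fell with Dex in both kinds of cell. It read 3.91, 4.11 and 4.18 in GR cells with vehicle and 3.23, 3.29 and 3.12 with Dex, and 3.73, 3.90 and 4.08 in GR+MDFIC cells with vehicle against 3.18, 3.23 and 3.22 with Dex. No Dex array reached a vehicle array. JUN fell by 0.86 on the log2 scale in GR cells (SE 0.09, adjusted p = 0.0005166 by limma) and by 0.69 in GR+MDFIC cells (SE 0.09, adjusted p = 0.001457). Both differences also passed when slide was a block, at -0.84 and -0.86.

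DUSP1 (NM_004417), a phosphatase that switches off JNK and p38, rose in both. It read 3.75, 3.75 and 3.82 in GR cells with vehicle and 4.29, 4.28 and 4.45 with Dex, and the corresponding means in GR+MDFIC cells were 3.88 ± 0.07 and 4.24 ± 0.05 (SD, n = 3). The Dex arrays lay above the vehicle arrays in both kinds of cell. The difference was 0.57 ± 0.06 (SE, adjusted p = 0.0003855 by limma) in GR cells and 0.36 ± 0.06 (adjusted p = 0.004294) in GR+MDFIC cells. The interaction of DUSP1 was -0.21 ± 0.08 and did not pass (adjusted p = 0.4987 by limma).

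DUSP16 (NM_030640), another phosphatase that acts on JNK and p38, fell by 0.24 (SE 0.06, adjusted p = 0.02132 by limma) with Dex in GR+MDFIC cells, from a mean of 2.27 to 2.03. The call of DUSP16 was lost in 6 of 25 alternatives. With slide as a block the difference was -0.18 (adjusted p = 0.3644 by limma). The call was also lost without GR+MDFIC vehicle replicate 1 (adjusted p = 0.07762 by limma) or GR+MDFIC Dex replicate 2 or 3 (0.07678 and 0.07413). The other losses came with the mean of the accession's probes (adjusted p = 0.1313 by limma) and with only the groups compared (0.1193). In GR cells its difference was -0.19 (SE 0.06) and did not pass (adjusted p = 0.07772 by limma). All 4 DUSP16 probes read lower with Dex in both kinds of cell, but they differed in size. The other 3 gave -0.36, -0.04 and -0.31 in GR+MDFIC cells, and only the first of these passed (adjusted p = 0.001758 by limma over all probes). In GR cells they gave -0.27, -0.40 and -0.06, and the first pair of these passed (adjusted p = 0.01193 and 0.02924 by limma over all probes).

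MAP2K6 (NM_002758), a middle kinase of p38, was the transcript higher with MDFIC under Dex, and its highest values were all on slide 3. It read -3.96, -4.10 and -3.94 in the GR+MDFIC Dex arrays, all on slide 3, and -6.00, -5.87 and -6.13 in the GR Dex arrays on slides 1 and 2. The fourth array of slide 3, from GR+MDFIC cells with vehicle, read -4.20, whereas the 2 arrays of that group on slide 2 read -5.48 and -5.82. GR cells with vehicle, all on slide 1, read -5.51, -6.16 and -4.84. Slide and MDFIC cannot be told apart under Dex without borrowing from the other groups. The difference of 2.00 ± 0.41 (SE, adjusted p = 0.03307 by limma) became 0.55 with slide as a block (adjusted p = 0.8819). The call also ended without GR vehicle replicate 1 or any single array of the GR Dex and GR+MDFIC Dex groups, with adjusted p by limma of 0.05299 to 0.09472. Without GR+MDFIC vehicle replicate 3, that group lay on slide 2 only. MAP2K6 then passed for Dex in GR+MDFIC cells (1.65, adjusted p = 0.005348 by limma) and for the interaction (2.15, adjusted p = 0.01868 by limma). With all arrays neither passed (adjusted p = 0.09062 and 0.497 by limma). The probe was near background, and on 2 of the 12 arrays it was not well above it.

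**Figure D5:**
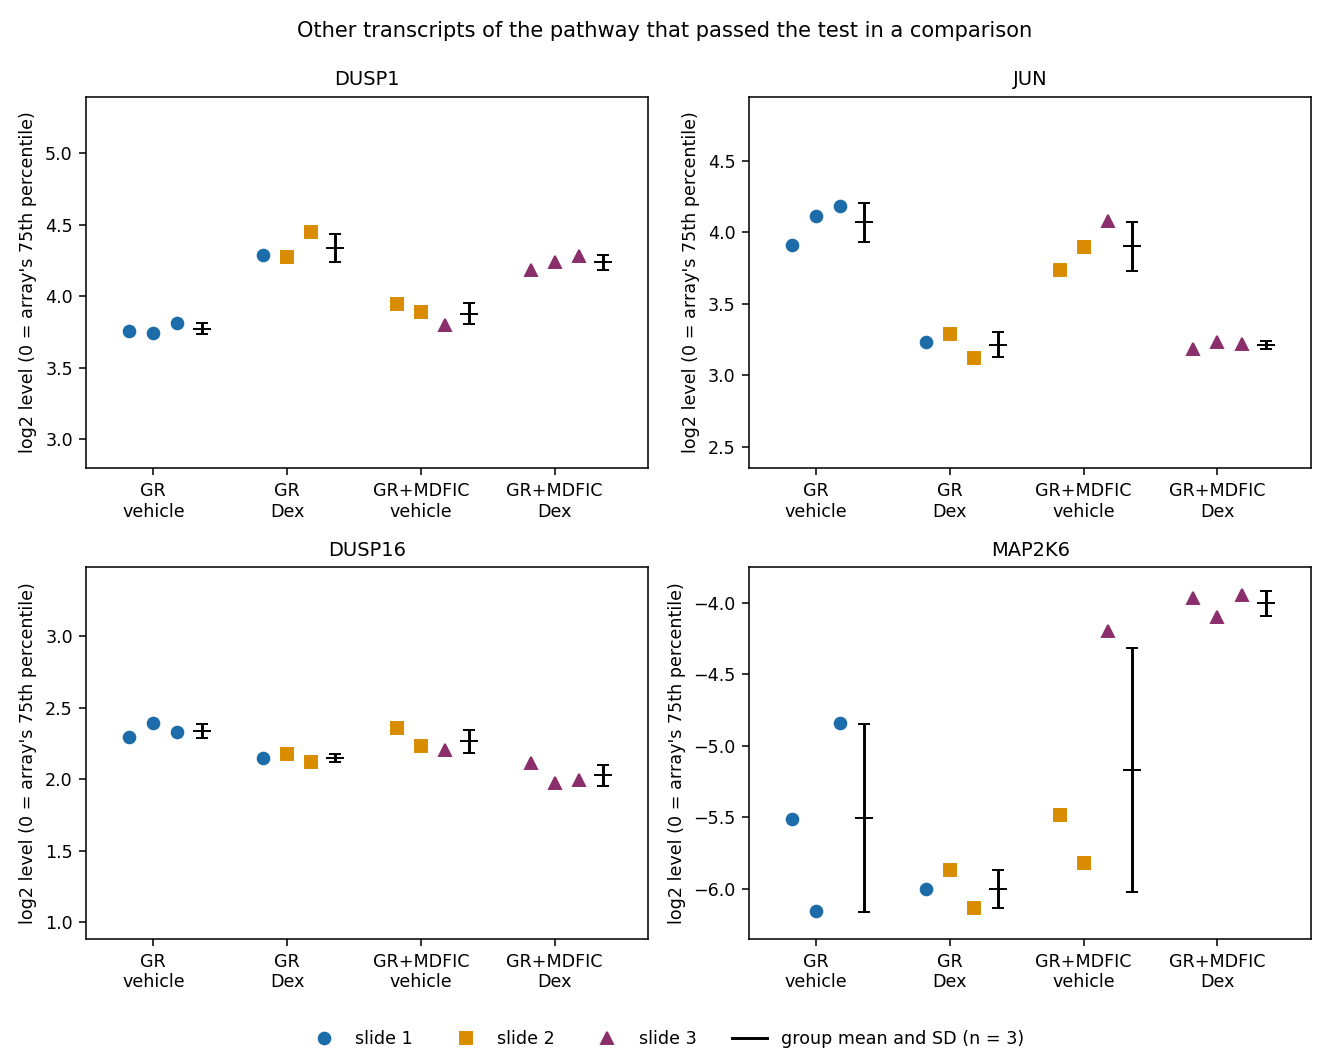
Log2 level of DUSP1, JUN, DUSP16 and MAP2K6 on each of the 12 arrays, relative to the array's 75th percentile, with symbols for the slide and bars for each group's mean and SD (n = 3). JUN is lower and DUSP1 higher on every Dex array than on every vehicle array of the same cells, and the 4 MAP2K6 values of slide 3, -4.20 to -3.94, lie above those of the other slides.

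The accessions whose levels ran most like those of each GADD45 transcript over the 12 arrays were taken by Pearson correlation among 23724 accessions, as a description without a test. The arrays share scaling and slides, and for GADD45G they fall into a vehicle and a Dex cluster, so r there includes the Dex difference itself. For GADD45G they were NM_015193, NM_006096 and the array's transcript cluster THC2733814, with r of 0.996, 0.996 and 0.995. After removal of the group means, r was 0.747, 0.817 and 0.678. The Dex differences of NM_015193 were 2.51 without MDFIC and 2.78 with it, and those of NM_006096 were 0.88 and 0.97. For GADD45A the closest were NM_173517, NM_014999 and NM_004396 (r of 0.978, 0.971 and 0.956), and these had 0.947, 0.928 and 0.935 after removal of the group means. For GADD45B, which did not pass for Dex, the closest reached 0.878, 0.861 and 0.858. After removal of the group means these had 0.910, 0.913 and 0.898. All such values are the highest among 23724 accessions, so high r alone does not show a link between transcripts.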

How the data were processed

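Cy3-labelled cRNA from 500 ng of total RNA was hybridised to 1-colour Agilent arrays, and the authors deposited the scanner output of each array, processed with Agilent Feature Extraction 12 per the submitters' processing notes. The values used are the deposited processed intensity of each spot (background-corrected by that software, per the file headers). The deposited series table, also an intensity, held the same values. Here control spots and outlier spots were left out, each array was divided by the 75th percentile of its non-control spots, log2 was taken, and spots of a probe were averaged. Probes had to be well above background on all 3 arrays of a group. The brightest probe stood for an accession. Group means were fitted with limma 3.58.1 in R 4.3.3 over 12 arrays and 23757 accessions, with Benjamini-Hochberg adjustment and a threshold of 0.05, and tested on simulated data. Members and lists were chosen with earlier results of these data known. Named were all members, the other pathway genes that passed (up to 4 a comparison), the 3 accessions most like each GADD45 transcript, and NM_199072. NR3C1 was not analysed here. Alternatives covered scaling, background correction, filter, probe choice, slide and replicate blocks, variance model and single arrays left out.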

Additional observations from a re-analysis of the deposited data

How the results depend on the processing

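The rise of GADD45G with Dex passed in 26 of 26 alternatives in GR cells (1.09 to 1.55) and 25 of 25 in GR+MDFIC cells (1.12 to 1.71). In GR+MDFIC cells the count of transcripts that passed for Dex dropped from 2 to 1, through GADD45A, with median scaling, without the filter on dim probes, with a slide block of either kind, with the replicate block, and when only the groups compared were fitted. It was 1 to 2 when single arrays were left out: 10 of the 12 ended the GADD45A call, all but GR Dex replicate 3 and GR+MDFIC vehicle replicate 3, with adjusted p by limma of 0.05297 to 0.1389. The other counts over the 8 transcripts did not move. Of the 26 other pathway genes, 6 passed for Dex in GR+MDFIC cells after normexp and quantile scaling (3 in the report, 2 to 4 in the other settings that keep every array), and 4 in GR cells with an intensity trend (2 in the report). For MDFIC under Dex, 0 passed with a slide block, fixed or random, or with the strictest filter, against 1. Leaving out single arrays gave 2 to 3, 2 to 7, 0 to 1, 0 to 1 and 0 to 2 in the 5 comparisons, and 7, 1 and 2 for Dex in GR+MDFIC cells, MDFIC in vehicle and the interaction came without GR+MDFIC vehicle replicate 3. Over all accessions the counts of 1704, 3217, 210, 1317 and 14 became 845, 809, 71, 48 and 20 with the slide block, and 6311, 565, 3106 and 1797 in the last 4 without that array. The cause was not tested. Deviations of same-numbered arrays correlated at -0.24 to 0.14, and those of differently numbered arrays at -0.23 to 0.23. No pairing by replicate number was seen, which does not decide whether the samples were paired. With the replicate block GADD45A had an adjusted p of 0.06816 by limma. Precision is limited by 3 arrays a group, and the pathway alternatives were added after the data were seen.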
